A study of Mus musculus with 6 samples.

Results

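The 10 genes of the T cell receptor complex and its co-receptors were followed in RNA-seq of lung endothelial cells (ECs) from angiotensin II (AngII)-infused mice. They were chosen by symbol, with earlier results of these data known, and make up 10 of the 47729 genes counted. The set holds Trbc2 (a constant region of the T cell receptor beta chain), Cd3d, Cd3e, Cd3g and Cd247 (the signalling subunits), the co-receptors Cd4, Cd8a and Cd8b1, the kinase Lck and the co-stimulatory receptor Cd28. There were 3 libraries of WT and 3 of leene-KO mice, all of them males of 14 weeks on normal chow that had received AngII at 1000 ng/kg/min by osmotic pump for 2 weeks. The KO mice carry a global deletion of the leene region, which per the study encodes 3 long noncoding RNAs, leene among them. The deletion is not specific to ECs. No group without AngII was included. The labels describe CD31-enriched lung cells, whereas the study's methods name an antibody against CD144, and the labels describe pooling the cells of 3 mice per group, and neither source settles whether a library stands for 1 mouse or for a pool. The p-values below therefore measure the spread between libraries, which may be technical. The counted annotation does not list the leene gene, which was not analysed here, and genotypes follow the labels.

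T cells recognise peptides held by MHC molecules through a receptor made of an alpha and a beta chain. These chains have almost no cytoplasmic part, and the signal is passed on by the CD3 subunits and the zeta chain, whose tyrosine motifs are phosphorylated by LCK. CD4 and CD8 bind MHC class II and class I molecules and bring LCK to the receptor, and CD28 adds a second signal when it meets CD80 or CD86 on a presenting cell. ECs are not known to assemble this receptor, so its transcripts were read as those of T lymphocytes isolated along with the ECs. The source of the transcripts was not tested. In a bulk library, fewer T cells and less RNA per T cell cannot be told apart.

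The receptor transcripts were scarce in every library. The 10 genes together took 177, 265 and 170 counts in WT replicates 1 to 3 against 388, 289 and 388 counts in the KO replicates, out of totals of 24464324 to 35184063 counts. A single gene had between 2 and 121 counts in a library. Counts scaled to library size (CPM) were computed on library sizes scaled by TMM, and 1 count was then worth 0.0245 to 0.0468 CPM. On this scale the summed level was 4.33, 7.78 and 7.95 CPM in the WT libraries against 16.7, 10.6 and 13.4 CPM in the KO libraries, or 6.69 ± 2.04 CPM (SD, n = 3) against 13.6 ± 3.02 CPM (SD, n = 3). The KO sum was 2.03 times the WT sum, and every KO library lay above every WT library. The ECs' own Pecam1, which encodes CD31, was at 312 to 582 CPM, so these are traces beside the labelled cell type. Per length of exon, the CD3 subunits Cd3d, Cd3e and Cd3g summed to 1.07%, 2.70% and 1.59% of Pecam1 in the WT libraries and to 3.78%, 4.67% and 3.07% in the KO libraries.

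Before the values, the sequences that set how these genes can be counted are given. The beta chain has a pair of constant regions, Trbc1 and Trbc2, on chromosome 6 of GRCm38, and a T cell uses 1 of them. Their first exons (41538218 to 41538592 for Trbc1 and 41546730 to 41547104 for Trbc2) are 375 bases long and differ at 1 base. Over all 518 coding bases the genes differ at 23, an identity of 95.6%, and 18 of these lie in exons 2 and 3. Those exons, of 18 and 107 bases, are shown joined as in the transcript (coding bases 376 to 500, plus strand, GENCODE on GRCm38), with the bases that differ between the genes in capitals. The spans are chr6:41539114-41539131 and chr6:41539229-41539335 for Trbc1, and chr6:41547610-41547627 and chr6:41547772-41547878 for Trbc2.
Trbc1: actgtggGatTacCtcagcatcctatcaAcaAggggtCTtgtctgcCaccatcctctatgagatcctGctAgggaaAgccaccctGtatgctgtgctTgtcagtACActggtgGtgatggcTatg
Trbc2: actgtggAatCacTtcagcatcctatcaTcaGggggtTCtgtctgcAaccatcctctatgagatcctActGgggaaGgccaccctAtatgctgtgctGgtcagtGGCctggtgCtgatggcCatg
Of the distinct 50-base windows of the Trbc2 transcript, 283 of 643 (44.0%) also occur in Trbc1. Reads of 50 bases from these windows align to both places and were not counted, so the Trbc2 level is a count of its distinct part. For the other members, windows shared with another gene on the same strand made up 6.0% for Cd8b1, 2.90% for Cd247, 0.0567% for Cd3d and none for Cd3e, Cd3g, Cd4, Cd8a, Lck and Cd28. Cd247 also shares 56.4% of its exonic bases with Pou2f1, a broadly expressed transcription factor gene on the opposite strand. Counting used the strand, which tells them apart, and Pou2f1 was at 15.5 to 19.7 CPM in WT and 15.2 to 23.8 CPM in KO libraries, with overlapping groups.

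Cd3d, Cd3e and Cd3g lie side by side on chromosome 9 within 40.0 kb, where Cd3g (44969572 to 44980431, minus strand) and Cd3d (44981793 to 44987052, plus strand) point away from each other with 1362 bases between their starts, and Cd3e (44998743 to 45009590, minus strand) follows. The 250 bases before the RefSeq start of each gene are shown, as the promoters of neighbours that encode subunits of 1 complex (RefSeq, GRCm38.p6, written 5′ to 3′ on the gene's strand). The spans are chr9:44981536-44981785 on the plus strand for Cd3d, chr9:44980432-44980681 on the minus strand for Cd3g and chr9:45009612-45009861 on the minus strand for Cd3e. Capitals mark matches, on either strand, to short motifs of factors known in T cells, namely AGGAAG for the ETS family, TGTGGT for the RUNX family, AGATAA for the GATA family, CTTTGA for the TCF1 and LEF1 factors, CAGGTG as an E box for the E proteins, CAGCTG as a further E box for them, and also to TATAAA for the general TATA box.
Cd3d: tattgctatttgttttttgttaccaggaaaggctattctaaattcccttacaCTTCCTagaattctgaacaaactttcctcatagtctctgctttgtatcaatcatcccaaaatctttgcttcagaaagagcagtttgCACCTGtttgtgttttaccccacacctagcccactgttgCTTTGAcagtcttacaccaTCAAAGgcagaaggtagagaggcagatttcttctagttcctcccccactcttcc
Cd3g: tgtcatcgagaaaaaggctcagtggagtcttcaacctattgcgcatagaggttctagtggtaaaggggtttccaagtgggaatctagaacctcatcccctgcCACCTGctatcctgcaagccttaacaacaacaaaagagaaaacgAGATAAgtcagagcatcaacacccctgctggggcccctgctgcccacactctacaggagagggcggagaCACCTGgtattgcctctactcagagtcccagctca
Cd3e: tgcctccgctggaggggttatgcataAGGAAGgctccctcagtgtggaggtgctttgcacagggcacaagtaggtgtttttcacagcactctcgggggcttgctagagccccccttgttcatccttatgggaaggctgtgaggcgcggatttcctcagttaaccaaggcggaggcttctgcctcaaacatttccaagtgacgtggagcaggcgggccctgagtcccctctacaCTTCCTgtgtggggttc
The RefSeq table holds 7 promoters of 6 of the 10 genes (Lck has a pair). AGGAAG was in 5 of the 7, those of Cd247, Cd3d, Cd3e and both of Lck, and in 29.5% of all 32851 promoters of the same length. CAGGTG was in 4 of the 7 and in 17.2% of all. TGTGGT (14.0% of all), AGATAA (9.99%) and CTTTGA (13.8%) were in 1 promoter each, of Lck, Cd3g and Cd3d. CAGCTG (13% of all) and TATAAA (12.4%) were in none of the 7, and the Cd8a promoter held no match to any of these motifs. A match only describes the letters.

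The comparison of KO with WT used edgeR's quasi-likelihood test on the 14625 genes that passed its filter on low counts. All 10 genes passed the filter. Cd8a passed through the KO libraries alone, since no WT library reached the filter's 0.350 CPM of total counts. None of the 10 was called at an adjusted p under 0.05, against 0.109% of all tested genes in either direction. None was called by DESeq2, the tool of the study's methods. Of the 15470 genes with an adjusted p, DESeq2 called 0.569% as higher in KO. At an unadjusted p under 0.05, 5 of the 10 were higher in KO and 0 lower, beside 5.62% and 4.68% of all tested genes. The 5 were Cd3d, Cd3e, Cd247, Cd4 and Cd8a, of which Cd8a entered the test only through the group where it was high. The 5 became 2 without KO replicate 1, 3 without WT replicate 1, 3 without KO replicate 3 and 3 with total counts alone. DESeq2 also gave 5 at an unadjusted p under 0.05. Every KO library lay above every WT library for 5 of the 10 (Cd3d, Cd3e, Cd247, Cd4 and Cd8a) and below for 0, beside 8.59% and 9.2% of all tested genes. The limit for Cd8a holds here as well. The log2 fold change was above 0 for all 10 genes, beside 54.1% of all tested genes. The 10 were measured in the same libraries, so they are not separate observations of direction. Cd28 turned below 0 with total counts alone (-0.15), without WT replicate 3 (-0.41) and without KO replicate 1 (-0.021). The median of the 10 was 1.08 with or without the filter, beside 0.03 over all tested genes.

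**Figure D1:**
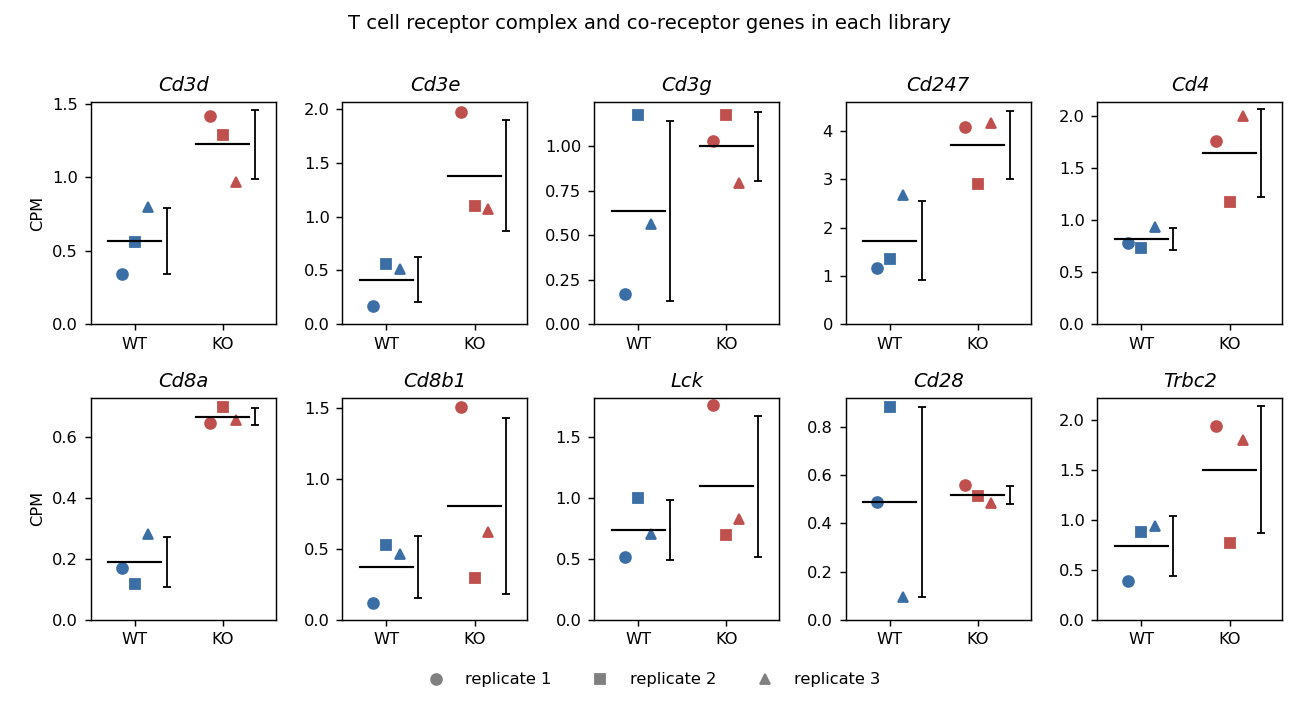
CPM of the 10 genes in each library (points; circle, square and triangle for replicates 1, 2 and 3), with the group mean (line) and SD (bar, n = 3). Every KO point lies above every WT point for Cd3d, Cd3e, Cd247, Cd4 and Cd8a, and the groups overlap for Cd3g, Cd8b1, Lck, Cd28 and Trbc2.

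Of the CD3 subunits, Cd3e, which pairs with both other CD3 chains, measured 0.171, 0.557 and 0.515 CPM in the WT libraries, in the order of their replicate numbers, against 1.98, 1.10 and 1.07 CPM in the KO libraries. Behind these values stand 7, 19 and 11 counts for WT against 46, 30 and 31 for KO. The groups did not overlap, and KO replicate 1 was the highest. The log2 fold change was 1.76 with a standard error (SE) of 0.55 (adjusted p = 0.374, edgeR, Benjamini-Hochberg) and spanned 1.34 to 2.06 when single libraries were left out. DESeq2 gave Cd3e an adjusted p of 0.164, the lowest of the 10 genes. Cd3d, the delta subunit, measured 0.342, 0.557 and 0.795 CPM in the WT libraries against 1.42, 1.29 and 0.965 CPM in the KO libraries. The groups did not overlap, with WT replicate 3 and KO replicate 3 closest to each other. Its log2 fold change was 1.14 (SE 0.44, adjusted p = 0.465, the same test).

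Cd3g, the gamma subunit and the nearest neighbour of Cd3d, measured 0.171, 1.17 and 0.561 CPM in the WT libraries against 1.03, 1.18 and 0.793 CPM in the KO libraries. WT replicate 2, with 40 counts, was as high as the highest KO library, and the groups overlapped. On the log2 scale the fold change was 0.66 (SE 0.65, adjusted p = 0.721, edgeR) and went from 0.17 to 1.5, with the upper end reached without WT replicate 2. In WT replicate 2 Cd3g thus stood above Cd3d and Cd3e, both at 0.557 CPM, whereas in WT replicate 1 all 3 subunits were at or below 0.342 CPM.

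Cd247 (chromosome 1, 165788681 to 165877277), which encodes the zeta chain with most of the complex's tyrosine motifs, had the most counts of the 10 genes, at 48, 46 and 57 in WT and 95, 79 and 121 in KO. That was 1.17, 1.35 and 2.67 CPM in the WT libraries against 4.08, 2.90 and 4.17 CPM in the KO libraries. The groups did not overlap, although WT replicate 3 came close to KO replicate 2. The means were 1.73 ± 0.816 CPM for WT and 3.72 ± 0.707 CPM for KO (SD, n = 3 each). The log2 fold change was 1.13 (SE 0.36, adjusted p = 0.386, edgeR). NK cells also use the zeta chain, and their own genes are given below.

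The receptor chains themselves were less even. Trbc2 (chromosome 6, 41546730 to 41548352) measured 0.391, 0.880 and 0.936 CPM in the WT libraries against 1.93, 0.772 and 1.79 CPM in the KO libraries. KO replicate 2 lay below WT replicates 2 and 3, and the groups overlapped. Its fold change on the log2 scale was 1.04 (SE 0.51, adjusted p = 0.520, edgeR). Its near copy Trbc1 measured 0.220, 0.117 and 0.515 CPM in the WT libraries against 1.85, 0.441 and 0.758 CPM in the KO libraries (log2 fold change 1.89, SE 0.75, adjusted p = 0.468, edgeR). Trac, the constant region of the alpha chain, measured 0.978, 1.09 and 1.36 CPM in the WT libraries against 2.36, 1.25 and 1.62 CPM in the KO libraries (log2 fold change 0.62, SE 0.36, adjusted p = 0.577, edgeR). Without KO replicate 1, the log2 fold change was 1.11 for Trbc1 and 0.32 for Trac. For each of these chains KO replicate 1 was the highest library and KO replicate 2 the lowest KO library.

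Trdc, the constant region of the delta chain that gamma-delta T cells use, measured 0.269, 0.704 and 0.140 CPM in the WT libraries against 0.215, 0.294 and 0.379 CPM in the KO libraries (log2 fold change -0.35, SE 0.68, adjusted p = 0.861, edgeR). Its direction turned without WT replicate 2, at 0.43. Among the 4 tested constant regions, Trbc2 included, 0 were called and 1 (Trbc1) had an unadjusted p under 0.05. The gamma constant regions did not pass the filter. Tcrg-C2 had 0 counts in all WT libraries and 3, 11 and 3 in KO. Tcrg-C1 was present in both genotypes, at 3, 5 and 1 for WT replicates 1 to 3 against 2, 0 and 5 for KO. Tcrg-C4 was seen only in replicate 3 of each genotype, with 3 reads for WT and 2 for KO.

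Reads on the variable segments that each T cell joins to a constant region were counted as well. The 35 segments of the beta chain together had 14, 14 and 10 counts in the WT libraries against 22, 16 and 26 in KO. This was 0.342, 0.411 and 0.468 CPM in the WT libraries against 0.945, 0.588 and 0.896 CPM in the KO libraries, so that the groups did not overlap and the KO mean was 1.99 times the WT mean. Trbv13-2 alone gave 36 of the 102 counts. The 128 segments of the alpha chain had 4, 17 and 5 counts in the WT libraries against 9, 8 and 2 in KO, with overlapping groups. None of these segments passed the filter, and no diversity of receptors can be read from so few counts.

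Cd8a (chromosome 6, 71373427 to 71379173), the CD8 chain of cytotoxic T cells, had the largest log2 fold change of the 10 genes. It measured 0.171, 0.117 and 0.281 CPM in the WT libraries against 0.644, 0.698 and 0.655 CPM in the KO libraries, from 7, 4 and 6 counts against 15, 19 and 19 counts. The KO libraries were close together and all above WT. The log2 fold change was 1.84 (SE 0.52, adjusted p = 0.335, edgeR), with 1.56 to 2.14 when each library was left out. Since Cd8a passed the filter through KO alone, the fit without a filter is given too, with a log2 fold change of 1.82 (SE 0.77, adjusted p = 0.445, edgeR). Cd8b1, which lies within 56.4 kb of Cd8a and encodes its partner chain, measured 0.122, 0.528 and 0.468 CPM in the WT libraries against 1.5, 0.294 and 0.620 CPM in the KO libraries. KO replicate 2 lay below WT replicates 2 and 3. Its log2 fold change was 1.12 (SE 0.77, adjusted p = 0.623, edgeR) and went from 0.31 to 1.5, with the lower end reached without KO replicate 1.

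Cd4 (chromosome 6, 124864692 to 124888221), the co-receptor of helper and regulatory T cells, measured 0.783, 0.734 and 0.936 CPM in the WT libraries against 1.76, 1.18 and 2.00 CPM in the KO libraries. The WT libraries were close together and all below KO. Its log2 fold change was 1.01 (SE 0.36, adjusted p = 0.423, edgeR), and it ran from 0.85 to 1.18 with each library left out, the narrowest range of the 10 genes. Per length of exon, Cd4 was above Cd8a in every library, by 4.12, 5.64 and 3.01 times in WT and 2.47, 1.52 and 2.75 times in KO. The ratio was lower in every KO library than in every WT library, but the Cd8a value behind it was 4 to 7 counts in WT, and some macrophages and dendritic cells also transcribe Cd4 or Cd8a in mice.

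Lck (chromosome 4, 129548344 to 129573641), the kinase that starts the signal, measured 0.514, 0.998 and 0.702 CPM in the WT libraries against 1.76, 0.698 and 0.827 CPM in the KO libraries. KO replicate 1 stood above the rest, and the other KO libraries lay within the WT range. Its log2 fold change was 0.56 (SE 0.50, adjusted p = 0.691, edgeR) and was 0.03 without KO replicate 1. Cd28 (chromosome 1, 60716800 to 60773359) measured 0.489, 0.880 and 0.0936 CPM in the WT libraries against 0.558, 0.515 and 0.483 CPM in the KO libraries. The KO libraries fell inside the wide WT range, which went from 2 counts in WT replicate 3 to 30 in WT replicate 2. The log2 fold change was 0.04 (SE 0.69, adjusted p = 0.988, edgeR) and changed sign with the libraries left out, from -0.41 to 0.67.

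**Figure D2:**
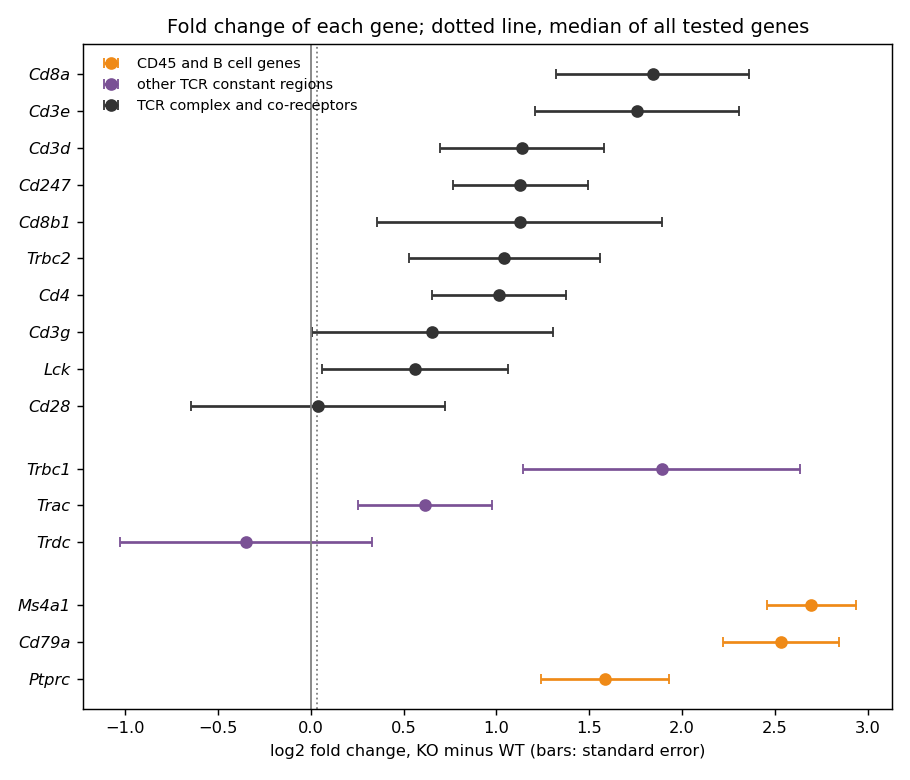
Log2 fold change of KO over WT with its standard error for the 10 genes (black), 3 further constant regions (purple), and Ptprc with 2 B cell genes (orange); the dotted line is the median of all tested genes, 0.03. The 10 genes run from 0.04 (Cd28) to 1.84 (Cd8a), and Ms4a1 and Cd79a lie above them all. These are among the highest of the 9 B cell genes. Pax5, Blk and Cd22, not shown, were at 1.07, 1.47 and 1.67, within the range of the 10.

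Levels of different genes were compared per kilobase of exon (RPKM). Trbc2 was divided by its full exonic length although reads shared with Trbc1 were not counted, so its RPKM is understated. In WT libraries the order of the means was Trbc2 (1.06 RPKM), Cd3g (0.594), Cd3d (0.427), Cd247 (0.325), Cd3e (0.289), Lck (0.252), Cd8b1 (0.251), Cd4 (0.203), Cd28 (0.0797) and Cd8a (0.0522). Each of these neighbours overlapped in their libraries, except Cd4 and Cd28. In KO the order was Trbc2 (2.17 RPKM), Cd3e (0.963), Cd3g (0.935), Cd3d (0.924), Cd247 (0.698), Cd8b1 (0.543), Cd4 (0.408), Lck (0.374), Cd8a (0.183) and Cd28 (0.0847). The 3 CD3 subunits were thus within 0.924 to 0.963 RPKM on average in KO. The neighbours that did not overlap in KO were Lck and Cd8a, and Cd8a and Cd28.

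**Figure D3:**
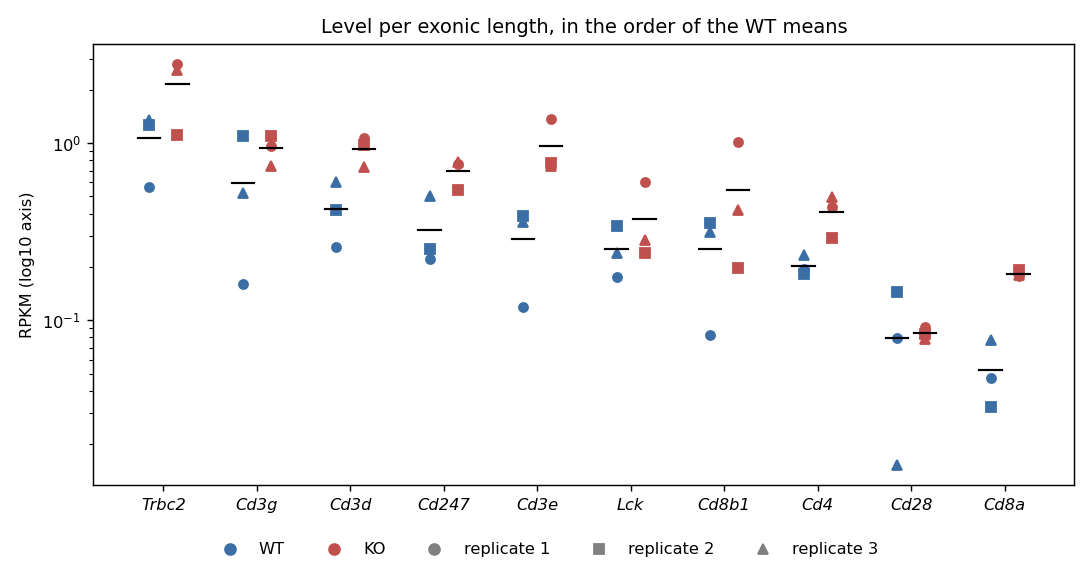
RPKM of the 10 genes in each library on a log10 axis, in the order of the WT means (black lines, group means; blue, WT; red, KO). Trbc2 has the highest mean in both groups, and Cd8a and Cd28 the lowest.

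Genes that act downstream of the receptor had values on both sides of 0. Of 40 signalling genes, 31 were tested, 0 were called, and 12 had a log2 fold change above 0 and 19 below, with a median of -0.15. The highest were Ptprc, Lax1 and Ptpn22 (1.58, 0.75 and 0.55) and the lowest Sla, Zap70 and Fyn (-0.61, -0.54 and -0.53). Ptprc encodes CD45, the phosphatase carried by all leukocytes, and measured 7.75, 21.8 and 17.5 CPM in the WT libraries against 53.3, 40.4 and 47.3 CPM in the KO libraries (adjusted p = 0.249 with edgeR and 0.0011 with DESeq2). Zap70, the kinase that docks on the phosphorylated zeta chain, measured 0.685, 1.53 and 1.59 CPM in the WT libraries against 0.730, 1.07 and 0.793 CPM in the KO libraries (log2 fold change -0.54, SE 0.44, adjusted p = 0.668, edgeR). Lat, the adaptor phosphorylated by ZAP70, was at 0.842 to 0.880 CPM in WT and 0.698 to 0.773 CPM in KO, with every KO library below every WT library (log2 fold change -0.21, SE 0.36, adjusted p = 0.839, edgeR). Many genes of the list, such as Plcg1 (92.1 to 124 CPM) and Fyn (44.8 to 76.0 CPM), are also transcribed in ECs and other lung cells. Themis, which is nearly restricted to T cells, had 25 counts over the 6 libraries and 0 in WT replicate 3 and KO replicate 2.

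Surface receptors that modulate the T cell response were tested for 12 of 18 genes. None was called, 3 had an unadjusted p under 0.05 (Btla, Cd27 and Havcr2, which encodes the inhibitory receptor TIM-3), and the 12 tested genes had log2 fold changes above 0, with a median of 0.84 that was 0.478 without KO replicate 1. Without the filter, 14 of the 18 were above 0 with a median of 0.656, and Ctla4, Pdcd1, Tnfrsf4 and Icos were below 0 (-1.92, -1.67, -0.94 and -0.23). The highest were Cd96, Btla and Cd27 (1.53, 1.45 and 1.04) and the lowest Tnfrsf9, Tnfrsf18 and Cd2 (0.01, 0.02 and 0.55). Btla, which B cells also carry, measured 0.832, 2.38 and 1.82 CPM in the WT libraries against 4.81, 3.38 and 5.51 CPM in the KO libraries. Cd27, a receptor of naive T cells and of other lymphocytes, was at 0.983 to 1.06 CPM in WT and 3.31, 1.32 and 1.72 CPM in KO. Neither gene's groups overlapped. Ctla4, which dampens CD28 signalling, had 41 counts in all libraries together, 32 of them in WT replicate 2, and was not tested.

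Genes of T cell lineage and subsets were tested for 13 of 18, with 0 called, 7 log2 fold changes above 0 and 6 below, and a median of 0.10. High values were those of Ccr7 and Ikzf3 (1.99 and 1.16) and low values those of Tcf7 and Runx3 (-0.28 and -0.22). Ccr7 guides naive T and B cells into lymph nodes. It measured 1.15, 1.58 and 1.12 CPM in the WT libraries against 5.80, 4.37 and 5.24 CPM in the KO libraries (adjusted p = 0.0507, edgeR), and the groups did not overlap. DESeq2 called Ccr7. Bcl11b, a factor of the T lineage, had 38 counts over the 6 libraries, and Foxp3, the factor of regulatory T cells, had 12. Tcf7 and Gata3, known in T cells, were at 12.5 to 21.7 and 10.4 to 15.1 CPM, far above Cd3e, and are transcribed by other lung cells too.

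Markers of other leukocytes were set beside the T cell genes. The 9 B cell genes summed to 12.4, 20.2 and 26.2 CPM in the WT libraries against 93.4, 91.1 and 91.2 CPM in the KO libraries, a ratio of 4.68, and all 9 had every KO library above every WT library. Their median log2 fold change was 2.43, with Ms4a1, Cr2 and Cd79a highest (2.69, 2.59 and 2.53) and Pax5, Blk and Cd22 lowest (1.07, 1.47 and 1.67), and edgeR called 3 of them. The sum of the T cell receptor genes over the B cell sum was 0.350, 0.385 and 0.303 in WT and 0.178, 0.117 and 0.147 in KO. It was lower in every KO library, as was their sum over Ptprc, at 0.558, 0.356 and 0.455 in WT and 0.313, 0.263 and 0.283 in KO. Per length, Cd3e over Cd79a was 0.120, 0.229 and 0.149 in WT and 0.125, 0.0925 and 0.0771 in KO, with overlapping groups.

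NK cells, which share Cd247 and Lck with T cells, were represented by 9 genes, of which 3 were tested (Klrk1, Gzma and Klrd1, with log2 fold changes of 0.78, 0.60 and 0.40). Their summed level was 1.59, 2.79 and 2.20 CPM in the WT libraries against 4.60, 1.91 and 4.14 CPM in the KO libraries. KO replicate 2 lay within the WT range, as it did for Lck. The part of NK cells in the Cd247 and Lck values was not tested.

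WT replicate 1 was the lowest WT library for the summed T cell receptor genes and stood apart in 2 other measures. Its alveolar type II genes summed to 5074 CPM, against 47070 and 14627 CPM in WT replicates 2 and 3 and 37059 to 45651 CPM in KO, and its TMM factor was 1.37, against 0.874 to 1.04 in the others. The other WT libraries were uneven too. Mitochondrial genes took 54.5% of the counts in WT replicate 3, against 37.4% to 46.2% in the others. Over all genes, chi-square over its degrees of freedom was 182 to 311 between WT libraries and 40.3 to 53.6 between KO libraries. For WT replicate 2 it was 48.4 to 80.4 against the KO libraries, and 218 and 311 against the other WT libraries. Without WT replicate 1 the median log2 fold change of the 10 genes was 0.786 and 3 of them had an unadjusted p under 0.05. EC genes summed to 2081, 2422 and 3687 CPM in the WT libraries against 3814, 2412 and 3185 CPM in the KO libraries, with overlapping groups. The part of these differences between libraries in the T cell values was not tested.

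**Figure D4:**
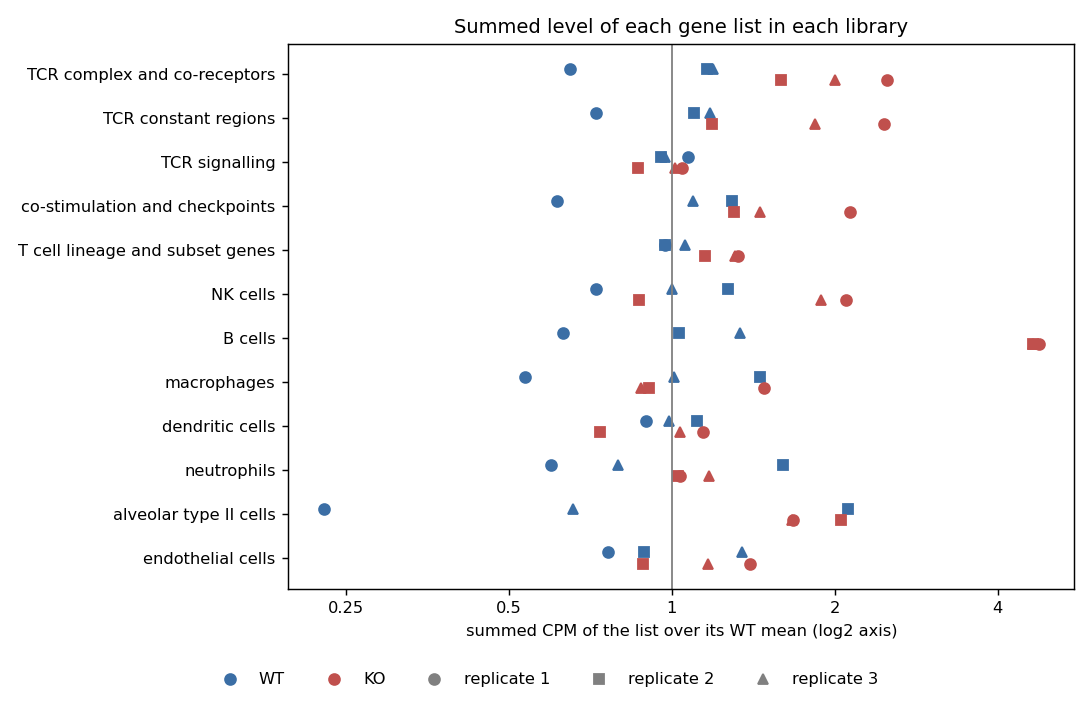
Summed CPM of each gene list in each library, divided by the WT mean of that list, on a log2 axis (blue, WT; red, KO; symbols as replicates 1, 2 and 3). The T cell receptor genes lie above all WT libraries in the 3 KO libraries at a mean ratio of 2.03, the B cell genes at 4.68, and the TCR signalling genes overlap.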

How the data were processed

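Libraries of polyA-enriched RNA from lung ECs (3 WT, 3 KO) were grouped by the sample labels. The authors deposited raw counts per gene, made per the file headers with featureCounts 2.0.0 (Ensembl release 84, GRCm38, exons, reverse strand) on uniquely aligned reads; the submitters' processing notes name STAR 2.5.4b and bcl2fastq 2.18. Reads that fit several places or genes were therefore lost. Of 47729 identifiers, 47224 matched a GENCODE symbol. The study's own DEG lists were not used.

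In R 4.3.3, edgeR 4.0.16 was run with filterByExpr, TMM, glmQLFit and glmQLFTest at default options, genotype as the only term and Benjamini-Hochberg adjustment over the 14625 tested genes (threshold 0.05, two-sided). The common biological coefficient of variation was 0.256. An exact permutation test of 3 against 3 cannot go below 0.1. CPM and RPKM use TMM-scaled totals. Totals were 24464324 to 35184063 counts; no 2 libraries agreed within sampling noise (lowest chi-square over its degrees of freedom, 40.3). Standard errors are the log2 fold change over the square root of F. Scripts were tested on simulated data.

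Named genes are the members, then the 3 highest and 3 lowest log2 fold changes of each further list, and the 10 genes whose log2 CPM (prior count 2) correlated best with the members' mean; other genes were named after their values were seen, and a few genes that this rule names are not reported here. The members and lists were chosen with earlier results of these data known. Alternatives were DESeq2 1.42.0, limma-voom (limma 3.58.1), the likelihood ratio test, other options, scalings and filters, a replicate block, and each library left out. DESeq2 without WT replicate 2 was added after the data were seen.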

Additional observations from a re-analysis of the deposited data

How the results depend on the processing

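The 10 T cell receptor genes stayed without a call under all settings but 2. The likelihood ratio test called 1 (Cd8a, which passed the filter through KO alone, log2 fold change 1.86, adjusted p = 0.0364, edgeR). It called 211 of all 14625 genes. DESeq2 without WT replicate 2, chosen after seeing the data, also called 1 (Cd3e, 2.04, adjusted p = 0.0367). That setting called 1485 of the 25690 genes fitted, so 1 call among the 10 is not set apart from all genes. The median of the 10 ran from 0.786 without WT replicate 1 to 1.26 without WT replicate 3. The number with every KO library above every WT library was 5 to 7 with each library left out and 5 under every scaling. With a library left out such a separation is easier to reach, and the share over all tested genes is not given for those settings. The higher counts are therefore not read as a firmer result. Cd28 turned to -0.15 with total counts alone, to -0.41 without WT replicate 3 and to -0.021 without KO replicate 1, and ran from -0.41 to 0.67 with each library left out. Total counts alone moved the median of all tested genes from 0.03 to -0.13. With at least 10 counts in every library, 5 of the 10 genes remained for testing.

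Over all genes, the 16 calls became 187 with DESeq2, 26 with limma-voom, 211 with the likelihood ratio test, 26 with RLE and 31 with upper-quartile scaling, 123 with total counts alone and 152 without a filter. They ran from 0 without any 1 KO library to 789 without WT replicate 2, and were 1485 with DESeq2 without WT replicate 2. With the replicate number as a block, 0 genes were called, 4 of the 10 had an unadjusted p under 0.05 and their median was 0.995. Deviations of same-numbered libraries correlated at -0.08, 0.22 and 0.01, so the numbers were not taken as pairs.

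The signalling list had 1 call with DESeq2, the likelihood ratio test, total counts alone or no filter and 2 without WT replicate 2 (also with DESeq2), and leaving out each library gave 0 to 2. Its median was -0.32 with total counts alone. The co-stimulation list had 1 call with the likelihood ratio test, no filter, or without WT replicate 2 (also with DESeq2), and 0 to 1 with each library left out. The lineage list had 2 calls with DESeq2 (with and without WT replicate 2), total counts alone or no filter, and 1 with the likelihood ratio test, the other legacy option, robust dispersions, RLE, upper-quartile scaling or mitochondrial genes left out, and 0 to 1 with each library left out (1 without WT replicate 1 or 2). Its median was 0.18 with DESeq2, 0.47 with DESeq2 without WT replicate 2, 0.20 with no filter, -0.069 with total counts alone and -0.084 with at least 10 counts in every library. The cause of these moves was not tested. Genes under about 1 CPM rest on few counts, which limits what any of these tests can call.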

Other observations

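Ligands of the CD28 family, which presenting cells and some ECs carry, were tested for 5 of 6 genes, with 0 called and a median log2 fold change of 0.37. In order these were Icosl, Cd274, Tnfrsf14, Cd86 and Cd80 (0.97, 0.55, 0.37, 0.36 and -0.81). Icosl, the ligand of ICOS, was at 3.33, 5.90 and 4.91 CPM in WT and 8.25, 10.3 and 9.13 CPM in KO, with every KO library above every WT library (adjusted p = 0.283 with edgeR's quasi-likelihood test and 0.0549 with DESeq2). Its receptor Icos had 41 counts in the 6 libraries and did not pass the filter.

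The lists of other cell types were summarised in the same way. Macrophage genes had a median of 0.28 (highest Csf1r, Adgre1 and Cd68 at 0.60, 0.47 and 0.36, lowest Marco, Fcgr1 and Chil3 at -0.64, -0.46 and -0.14) and dendritic cell genes 0.26 over 5 tested (Xcr1, Siglech and Flt3 at 1.49, 0.82 and 0.26, Zbtb46 and Cd209a at -0.12 and 0.02). Neutrophil genes had a median of 0.04 (Mmp9, Cxcr2 and Csf3r at 1.08, 0.36 and 0.26, S100a8, S100a9 and Retnlg at -0.52, -0.43 and -0.18) and mesenchymal genes 0.21 (Pdgfrb, Pdgfra and Dcn at 0.60, 0.34 and 0.28, Acta2, Col1a1 and Col1a2 at -0.53, -0.09 and 0.13). Alveolar type II genes had a median of 0.79 (Sftpc, Sftpa1 and Abca3 at 0.92, 0.82 and 0.80, Lamp3, Sftpd and Sftpb at 0.64, 0.72 and 0.77) and EC genes 0.14 (Kdr, Cdh5 and Esam at 0.87, 0.51 and 0.29, Erg, Ptprb and Pecam1 at 0.03, 0.05 and 0.06). None of these genes was called by edgeR's quasi-likelihood test, and DESeq2 also called 0; at an unadjusted p under 0.05, Xcr1, Mmp9 and Kdr were higher and Acta2 was lower in KO.

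The genes whose log2 CPM over the 6 libraries was most like the mean of the T cell receptor genes included Nfam1, Pld4, Tlr9, Ces2g, Tmem245, Itgb5, Mgat1, Fam214a and Wif1, with Pearson's r from 0.982 to 0.994. Over the same libraries, 287 of 12850 candidate genes (2.23%) had an r above 0.9, and all points share the libraries' depth and genotype.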
